A study of Mus musculus with 10 samples.

Results

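Small peritoneal macrophages and the macrophages that arise from blood monocytes are described here through 10 marker genes, picked by name from the 53465 genes of the count table: the chemokine receptors Ccr2 and Cx3cr1, the monocyte gene Plac8, the surface receptors Mrc1, Folr2, Lyve1, Cd226 and Fcrls, the transcription factor gene Irf4 and the proteoglycan gene Vcan. Their counts came from bulk RNA sequencing of mouse peritoneal macrophages in culture, with 5 control libraries (CTR) and 5 libraries of the genotype Mac-GsαKO (KO), whose name says that macrophages lack Gsα, the G protein subunit that links receptors to adenylyl cyclase and cyclic AMP. The mice of both genotypes were aged 6 to 8 weeks, and the cells of both were kept in serum-containing medium with no further treatment. The driver of the deletion, any priming of the peritoneal cavity before collection, and whether each library came from its own mouse are not stated in the sources used here. The spread behind each error and p-value is therefore that among libraries, which may be technical.

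The peritoneal cavity holds a large resident macrophage, which depends on the transcription factor GATA6, and a small macrophage that is rich in MHC class II, is replaced from blood monocytes and depends on IRF4. Monocytes leave the marrow through CCR2, the receptor of the chemokine CCL2, while CX3CR1, the receptor of fractalkine, marks patrolling monocytes and many tissue macrophages. The mannose receptor MRC1 (CD206), the folate receptor FOLR2 and the hyaluronan receptor LYVE1 are often used together to mark tissue macrophages that clear debris and ligands, and CD226 is an adhesion receptor used to sort the small peritoneal cells.

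Library totals lay between 15664243 and 19235777 counts. Gnas, the gene of Gsα, lay between 359 and 491 CPM (the gene's counts relative to a library total scaled by the TMM method) in CTR and between 37.0 and 43.5 CPM in KO, and no CTR library overlapped a KO library. Of 12 core macrophage markers, all tested, Csf1r and Itgam rose and Lyz2, the lysozyme gene, fell from 26528 ± 3802 to 9240 ± 517 CPM (log2 fold change -1.52, edgeR adjusted p = 2.03e-05). Over all tested genes, 1.83% were higher and 2.11% lower in KO at an edgeR adjusted p under 0.05. The summed level of the 12 markers, most of it Lyz2, was 32045 to 40644 CPM in CTR and 16694 to 18761 CPM in KO, and the part of Lyz2 in the results was not tested. The lysosomal marker Cd68 averaged 2929 ± 197 CPM in CTR against 2828 ± 112 CPM in KO (mean ± SD, n = 5 each), and Adgre1, which encodes F4/80, averaged 750 ± 69.4 against 865 ± 35.3 CPM. Mitochondrial genes took 1.39 to 1.97% of counts in CTR and 1.204 to 1.36% in KO, and their part in the results was not tested. CTR 4 and CTR 5 stood apart from the other CTR libraries on the first principal component over all genes (both at -34.7, against -18.5 to -6.85), and CTR 4 also on the second, so results are given with and without them. The labels give every KO library a lower library number than any CTR library, so anything that followed that numbering cannot be told apart from genotype. In bulk RNA, fewer cells of a type and less RNA per cell cannot be told apart.

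Promoter sequences of 8 of the 10 genes were found in a RefSeq table of GRCm38.p6, another build than the GRCm39 that the submitters' processing notes name. For 3 of them the 250 bases before a listed start are shown, 5′ to 3′ on the gene's strand. They are Fcrls and Mrc1, the pair with the lowest p-values in the genotype comparison, and Folr2. The Folr2 stretch is from the window that holds a match to the composite element of PU.1 and IRF factors, in capitals.
Fcrls, chr3:87263525-87263774, minus strand: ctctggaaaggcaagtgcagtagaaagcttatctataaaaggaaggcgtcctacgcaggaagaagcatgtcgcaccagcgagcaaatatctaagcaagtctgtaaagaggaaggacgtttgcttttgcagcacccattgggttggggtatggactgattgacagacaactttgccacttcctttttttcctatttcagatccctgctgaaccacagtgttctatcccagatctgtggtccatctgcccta
Mrc1, chr2:14229164-14229413, plus strand: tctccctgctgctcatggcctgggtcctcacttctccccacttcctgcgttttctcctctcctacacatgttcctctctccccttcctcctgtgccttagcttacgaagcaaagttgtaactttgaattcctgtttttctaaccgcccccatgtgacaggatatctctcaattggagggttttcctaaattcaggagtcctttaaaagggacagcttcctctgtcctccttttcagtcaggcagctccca
Folr2, chr7:101857191-101857440, minus strand: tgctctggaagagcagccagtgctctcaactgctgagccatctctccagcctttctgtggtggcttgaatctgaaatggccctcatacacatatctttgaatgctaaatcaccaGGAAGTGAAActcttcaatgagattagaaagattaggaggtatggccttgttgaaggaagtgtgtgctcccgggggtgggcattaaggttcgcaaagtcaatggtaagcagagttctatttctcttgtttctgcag
Over the table's 300-base windows, which end 50 bases after the start, 10 windows belonged to these 8 genes, and both strands were searched for 4 motifs. The cyclic AMP response element TGACGTCA was in 0 of the 10 windows, against 1.79% of all 32851 windows, and its short form TGACG, which the longer motif contains, was in 0 of 10, against 20.8%. The interferon-stimulated response element, GAAA followed by any 2 bases and GAAA, was in 0 of 10, against 3.44%. The composite element, GGAA followed by any 2 bases and GAAA, was in 1 of 10, against 2.72%, at position -136 from that Folr2 start. The window of another listed Folr2 start, with the bases before it at chr7:101845332-101845581, held none of the 4 motifs. These are matches of letters in short windows, and no binding was measured.

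Levels per gene length differed widely among the 10 genes. On the scale of the deposited FPKM (counts relative to gene length and library total), Mrc1 stood highest in CTR at 51.6 ± 9.60 FPKM, followed by Folr2 at 19.02 ± 3.29 FPKM, and neither range over libraries overlapped that of the next gene. All the others were near or below 1 FPKM. Plac8 at 1.08 ± 0.648, Fcrls at 0.636 ± 0.248, Irf4 at 0.517 ± 0.150 and Ccr2 at 0.310 ± 0.126 FPKM followed, and the ranges of each neighbouring pair among these 4 overlapped. Vcan at 0.112 ± 0.0553, Cx3cr1 at 0.0700 ± 0.0660, Lyve1 at 0.0610 ± 0.0672 and Cd226 at 0.0321 ± 0.0363 FPKM came last, with the range of Vcan below that of Ccr2 and the other neighbours overlapping. In KO the order was the same except that Cx3cr1 (0.144 ± 0.0621 FPKM) stood above Vcan (0.0969 ± 0.0161 FPKM), and the ranges of that pair overlapped in both genotypes. In KO the range of Irf4 (0.796 ± 0.230 FPKM) no longer overlapped that of Ccr2 (0.430 ± 0.0711 FPKM). The ranges of Ccr2 and Cx3cr1 did not overlap in either genotype. The order depends on gene length, which was 14410 bases for Ccr2 in the deposited FPKM against 2459 for Plac8, 2675 for Fcrls and 5266 for Irf4. By CPM, which ignores length, Ccr2 averaged 4.50 in CTR and 6.12 in KO. That was above Irf4 (2.74 and 4.14), Plac8 (2.695 and 3.46) and Fcrls (1.72 and 3.16 CPM). By CPM Vcan (2.24) also stood above Fcrls in CTR. The mannose and folate receptors thus stood at the top of the 10 in both genotypes, and Lyve1 and Cd226 at the bottom.

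**Figure D1:**
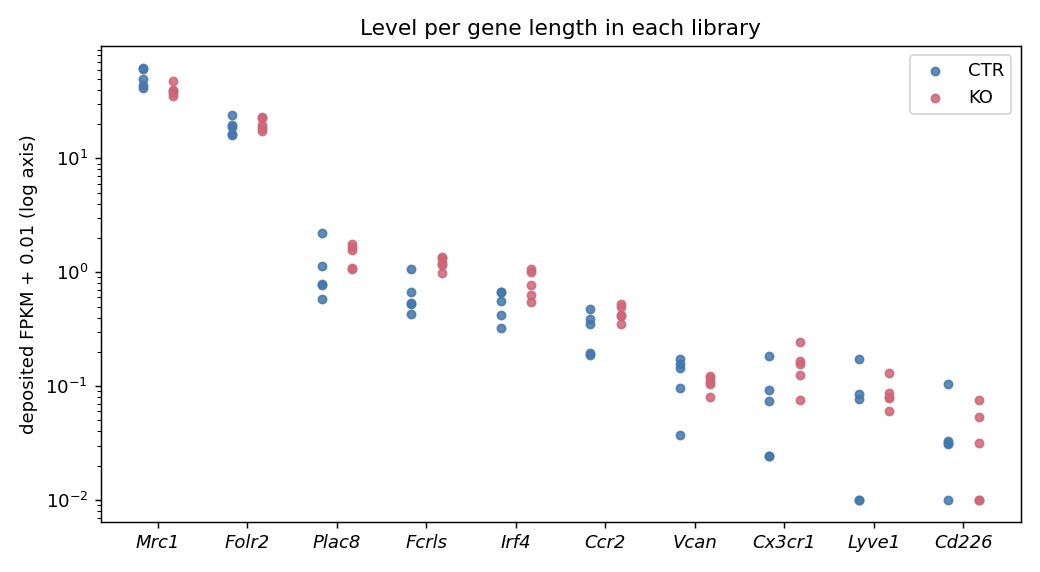
Deposited FPKM plus 0.01 on a log axis for each of the 10 genes (points are libraries, 5 CTR in blue and 5 KO in red), ordered by the CTR mean. Mrc1 and Folr2 lie above 15 FPKM in every library, and the other 8 genes lie below 2.2 FPKM; points at 0.01 are libraries with a count of 0.

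The comparison of KO with CTR asked whether these markers differ in macrophages without Gsα. By edgeR's quasi-likelihood test over the 13203 genes that passed a filter on low counts, 0 of the 8 of these genes that passed it were higher or lower in KO at an adjusted p under 0.05, against 1.83% of all tested genes higher and 2.11% lower. Lyve1 and Cd226 did not pass the filter. At an unadjusted p under 0.05 there were 3 of 8, Fcrls and Irf4 with higher and Mrc1 with lower values in KO, against 21.9% of all tested genes. None of the 8 had CPM that separated the genotypes without overlap, against 7.80% of all tested genes (3.25% higher and 4.55% lower in KO). The DESeq2 Wald test called 1 of the 8 higher and 1 lower, against 4.54% higher and 5.23% lower among all genes with an adjusted p. Limma voom with quality weights called 2 higher and 1 lower, against 7.77% and 6.76% of all tested genes.

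**Figure D2:**
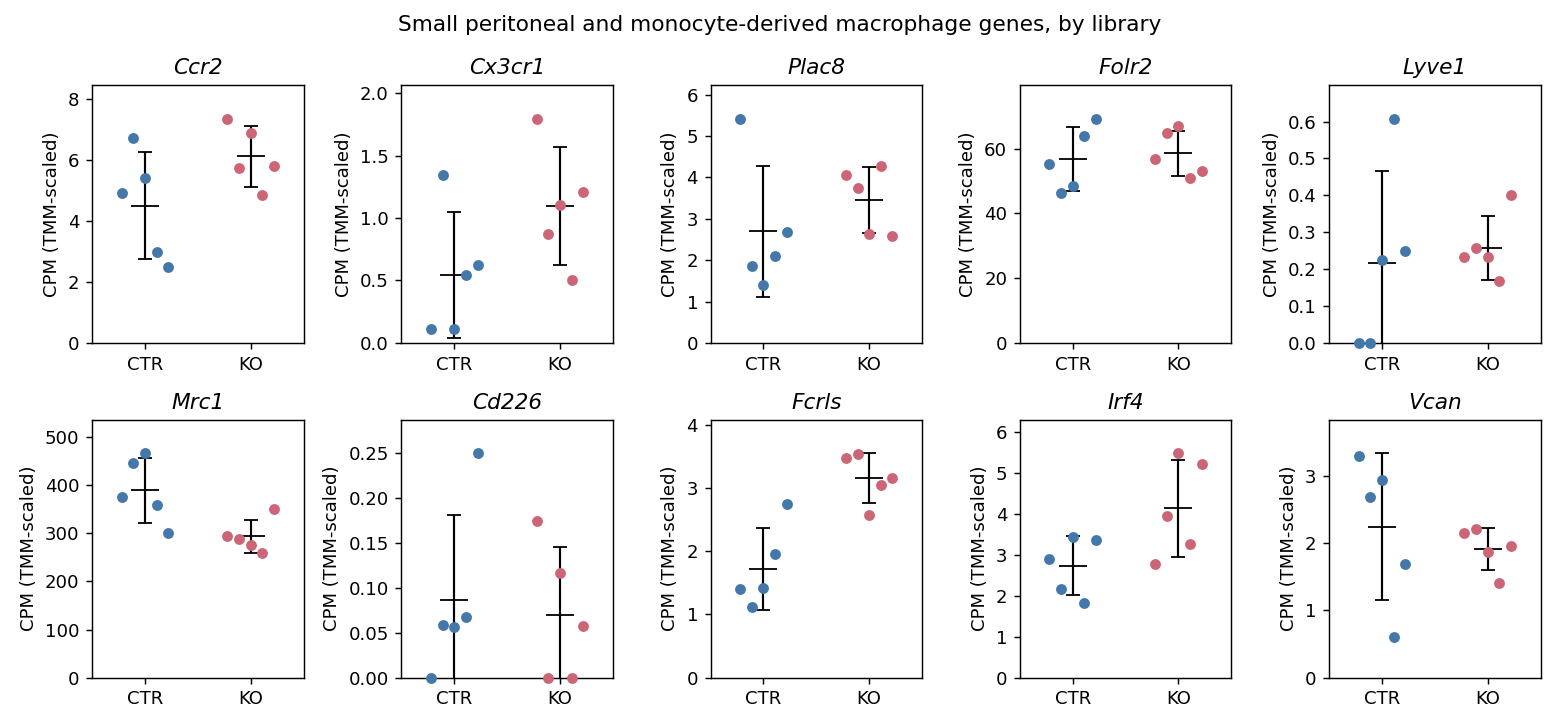
CPM of each of the 10 genes by library (vertical axis from 0, a separate scale for each gene; points are libraries, 5 CTR and 5 KO, horizontal marks are means and bars are SD, ending at 0 where they would go below it). The genotypes come closest to separating for Fcrls and Mrc1, where 4 of 5 KO libraries lie above every CTR library for Fcrls and 4 of 5 lie below every CTR library for Mrc1.

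Fcrls (ENSMUSG00000015852) encodes a relative of the Fc receptors with a scavenger receptor domain and is known as a marker of microglia and some tissue macrophages. It stood at 1.40, 1.11, 1.41, 1.96 and 2.74 CPM in CTR 1 to 5 and at 3.48, 3.53, 2.57, 3.04 and 3.16 CPM in KO 1 to 5. The groups overlapped through CTR 5 alone, which lay above KO 3, and 4 KO libraries lay above every CTR library. The means were 1.72 ± 0.647 CPM in CTR and 3.16 ± 0.390 CPM in KO, and the log2 fold change was 0.88 (SE 0.24, 95% interval 0.35 to 1.41 before adjustment), with an edgeR adjusted p of 0.0658. Without CTR 5 it passed (1.11, edgeR adjusted p = 0.0244), as it did without CTR 4 and CTR 5 (1.27, edgeR adjusted p = 0.00824). It also passed by DESeq2 (0.89, adjusted p = 0.0141) and by voom (1.14, adjusted p = 0.00441). These libraries held between 19 and 69 counts of Fcrls each.

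Mrc1 (ENSMUSG00000026712), the most abundant of the 10 genes, stood at 374, 445, 466, 359 and 299.6 CPM in CTR 1 to 5. In KO 1 to 5 it stood at 295, 288, 275, 259 and 350 CPM. All KO libraries but KO 5 lay below every CTR library, and CTR 5 was the lowest CTR library. The CTR mean was 389 ± 67.4 CPM against 293 ± 34.4 CPM in KO, and the log2 fold change was -0.41 (SE 0.13, 95% interval -0.68 to -0.13 before adjustment), with an edgeR adjusted p of 0.0881. The call again turned on CTR 5: without it the log2 fold change was -0.49 (edgeR adjusted p = 0.0406), and without CTR 4 and CTR 5 it was -0.55 (edgeR adjusted p = 0.0139). DESeq2 gave -0.40 (adjusted p = 0.0376) and voom -0.52 (adjusted p = 0.00763). Depth did not limit this gene, which had at least 4610 counts in each library. The microRNA gene Mir511 lies within the Mrc1 gene on the same strand.

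Folr2 (ENSMUSG00000032725), the other abundant receptor, stood at 55.3, 46.4, 48.3, 64.0 and 69.3 CPM in CTR 1 to 5 and at 56.9, 64.7, 66.9, 51.0 and 53.0 CPM in KO 1 to 5. The genotypes were interleaved, with means of 56.6 ± 9.87 and 58.5 ± 7.05 CPM. Its log2 fold change was 0.05 (SE 0.13, edgeR adjusted p = 0.861), and the 95% interval of -0.23 to 0.33 reaches folds of 0.852 and 1.25. That value changed sign when CTR 2, CTR 3 or KO 3 was left out (down to -0.02) and was 0.23 without CTR 4 and CTR 5. On the other strand of the annotated Folr2 gene lie Gm10602 and the pseudogene Gm45319. Lyve1 (ENSMUSG00000030787), which is often detected in the same macrophages as Folr2 and Mrc1, held 0, 0, 4, 9 and 4 counts in CTR 1 to 5 and 4, 5, 4, 3 and 7 counts in KO 1 to 5. No library reached the level the filter asks for, 0.584 CPM on library totals without TMM scaling, though CTR 4 stood at 0.608 CPM with it. A count of 0 allows up to 3 counts, or 0.168 CPM in CTR 1 and 0.175 CPM in CTR 2 (0.154 to 0.203 CPM over all libraries). In a fit without that filter Lyve1 had a log2 fold change of 0.28 (SE 0.79, edgeR adjusted p = 0.884), so a difference was not detectable at this depth. That value was 1.68 (SE 0.91, edgeR adjusted p = 0.409) without CTR 4 and CTR 5 and 1.52 (SE 0.73, adjusted p = 0.294) by voom. Lyve1 also marks lymphatic endothelium, and of 10 endothelial markers Emcn was at 0 in all libraries and Prox1, a defining gene of lymphatic endothelium, held 4 counts in all 10 libraries together. The summed level of these markers was 189 to 271 CPM in CTR and 64.0 to 142 CPM in KO, most of it Pdpn, which fell (206 ± 31.1 to 95.2 ± 27.3 CPM, log2 fold change -1.12, edgeR adjusted p = 0.0132). Their part in the values of Lyve1 was not tested.

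Irf4 (ENSMUSG00000021356), the transcription factor gene on which small peritoneal macrophages depend, stood at 2.91, 2.16, 3.44, 1.82 and 3.37 CPM in CTR 1 to 5 and at 2.78, 3.94, 5.48, 3.26 and 5.23 CPM in KO 1 to 5. KO 2, KO 3 and KO 5 lay above every CTR library, and KO 1 and KO 4 lay within the CTR range. The means were 2.74 ± 0.722 and 4.14 ± 1.19 CPM, with a log2 fold change of 0.59 (SE 0.24, 95% interval 0.06 to 1.12 before adjustment, edgeR adjusted p = 0.182). The value lay between 0.43 and 0.70 in 18 other settings, with adjusted p between 0.135 and 0.323, and was 0.54 without CTR 4 and CTR 5. B cells and dendritic cells also express Irf4. Of 12 B cell markers 5 passed the filter and 0 were called by edgeR, against 3.94% of all tested genes. At an unadjusted p under 0.05 there were 2, against 21.9%. Summed levels were 155 to 220 CPM in CTR and 178 to 227 CPM in KO, most of it Cd22. Among these markers Ighm averaged 4.18 ± 2.12 CPM in CTR against 8.16 ± 1.55 CPM in KO, and Cd79a averaged 0.588 ± 0.334 against 1.33 ± 0.437 CPM. Of 12 dendritic cell markers 5 passed the filter and 1, Batf3, was called (2.64 ± 0.545 to 6.17 ± 1.14 CPM, log2 fold change 1.22, edgeR adjusted p = 0.00848). At an unadjusted p under 0.05 there were 2, both higher, beside the same shares over all genes. Summed levels of these markers were 197 to 242 CPM in CTR and 222 to 328 CPM in KO, most of it Irf8. Their part in the values of Irf4 was not tested.

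Ccr2 (ENSMUSG00000049103) stood at 4.92, 6.72, 5.42, 2.97 and 2.49 CPM in CTR 1 to 5 and at 7.36, 5.74, 6.88, 4.84 and 5.80 CPM in KO 1 to 5. The lowest pair were CTR 4 and CTR 5, the libraries that stand apart over all genes, while CTR 1 to 3 overlapped KO. With means of 4.50 ± 1.75 and 6.12 ± 1.00 CPM the log2 fold change was 0.44 (SE 0.25, 95% interval -0.10 to 0.98, edgeR adjusted p = 0.332), and without CTR 4 and CTR 5 it was 0.11 (SE 0.17, edgeR adjusted p = 0.734). With 1 library left out it ran from 0.29 without CTR 5 to 0.62 without CTR 2. Cx3cr1 (ENSMUSG00000052336) stood at 0.112, 1.34, 0.113, 0.541 and 0.623 CPM in CTR 1 to 5 and at 1.797, 0.871, 1.11, 0.506 and 1.21 CPM in KO 1 to 5. CTR 1 and CTR 3 had 2 counts each and CTR 2 had 23, so the CTR libraries alone spanned most of the range. It passed the filter through 2 CTR and 4 KO libraries. Its means were 0.546 ± 0.505 and 1.10 ± 0.475 CPM and its log2 fold change was 1.00 (SE 0.57, 95% interval -0.22 to 2.23, edgeR adjusted p = 0.325). Leaving out CTR 2 alone made it 1.68 (edgeR adjusted p = 0.104) and leaving out CTR 1 made it 0.73 (edgeR adjusted p = 0.459), the highest and lowest values with 1 library left out. It was 1.08 (edgeR adjusted p = 0.376) without CTR 4 and CTR 5, and voom with quality weights gave 1.97 (adjusted p = 0.04996, just under the threshold). The annotated Cx3cr1 gene overlaps 9 other genes on both strands in GENCODE M21 (GRCm38), among them Csrnp1 and Wdr48, and the sources used here do not state the strand setting of the counting, so its low counts are uncertain.

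Plac8 (ENSMUSG00000029322), which encodes a small cysteine-rich protein of monocytes and other leukocytes, stood at 5.42, 1.87, 1.41, 2.09 and 2.68 CPM in CTR 1 to 5 and at 4.06, 3.74, 2.62, 4.28 and 2.58 CPM in KO 1 to 5. CTR 1 was the highest of all 10 libraries, while 3 of the other CTR libraries lay below every KO library. The means were 2.695 ± 1.59 and 3.46 ± 0.801 CPM. The log2 fold change was 0.36 (SE 0.33, edgeR adjusted p = 0.566), and it was 0.78 (SE 0.25, edgeR adjusted p = 0.106) without CTR 1, 0.26 without CTR 4 and CTR 5, 0.25 without CTR 2 and 0.19 without CTR 3, the lowest value with 1 library left out. Vcan (ENSMUSG00000021614), which encodes the chondroitin sulfate proteoglycan versican of classical monocytes, stood at 3.30, 2.69, 2.93, 0.608 and 1.68 CPM in CTR 1 to 5 and at 2.14, 2.20, 1.87, 1.41 and 1.95 CPM in KO 1 to 5. CTR 1 to 3 lay above every KO library and CTR 4, with 9 counts, below every one. The means were 2.24 ± 1.09 and 1.91 ± 0.315 CPM. Its log2 fold change was -0.24 (SE 0.35, edgeR adjusted p = 0.728) and -0.63 (SE 0.20, edgeR adjusted p = 0.0782) without CTR 4 and CTR 5. With 1 library left out it ran from -0.47 without CTR 4 to -0.06 without CTR 1, and it was -0.12 without CTR 3. Gm16318 and Gm4117 overlap the annotated Vcan gene on the other strand. Fibroblasts also make versican. Of 12 fibroblast and mesothelial markers 10 passed the filter. By edgeR 0 were called and 0 had an unadjusted p under 0.05, against 3.94% and 21.9% of all tested genes. Summed levels of these markers were 40.1 to 172 CPM in CTR, highest in CTR 5, and 62.3 to 80.9 CPM in KO. Their part in the values of Vcan was not tested.

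Cd226 (ENSMUSG00000034028), the adhesion receptor used to sort small peritoneal macrophages, was close to absent from the counts. It held 0, 1, 1, 1 and 4 counts in CTR 1 to 5 and 3, 0, 2, 0 and 1 counts in KO 1 to 5. No library reached the level of the filter, and in a fit without it the log2 fold change was -0.29 (SE 0.97, edgeR adjusted p = 0.907), which changed sign without CTR 5 (0.54), without KO 2 or KO 4 (0.03 and 0.01) and without CTR 4 and CTR 5 (0.74). T and NK cells also carry CD226. Of 15 T and NK cell markers 2 passed the filter, Il7r and Cd4, and Cd3e averaged 0.175 ± 0.153 CPM in CTR against 0.234 ± 0.117 CPM in KO. The summed level of these markers, 526 to 723 CPM in CTR and 474 to 595 CPM in KO, was mostly Il7r (617 ± 86.7 against 537.2 ± 48.5 CPM), and their part in the values of Cd226 was not tested.

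**Figure D3:**
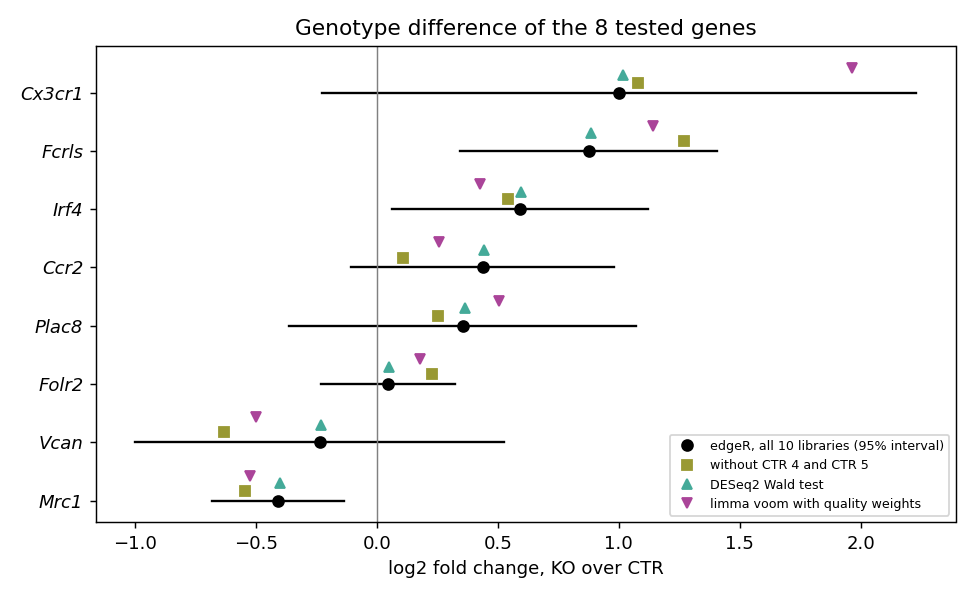
Log2 fold change of KO over CTR for the 8 genes that passed the filter (black points and bars: edgeR with all 10 libraries and its 95% interval before adjustment; coloured marks: the fit without CTR 4 and CTR 5, DESeq2 and limma voom). The intervals of Mrc1, Fcrls and Irf4 do not cross 0, and leaving out CTR 4 and CTR 5 moves Fcrls to 1.27, Vcan to -0.63 and Ccr2 to 0.11.

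The values of the 10 genes did not all have the same sign, though most of the single values were uncertain. Of the 8 that passed the filter 6 had a positive and 2 a negative log2 fold change, with a median of 0.40, beside a median of -0.01 over all tested genes. That median was 0.24 without CTR 4 and CTR 5. Among genes that monocytes and recruited macrophages share, Ccr2, Cx3cr1 and Plac8 had positive values and Vcan a negative value that was near 0 without CTR 1. None of the 4 passed the edgeR test, and the 95% interval of each crossed 0, so their signs do not show a split. The receptors of tissue macrophages also had values of both signs, with Fcrls positive, Folr2 near 0 and Mrc1 negative. The libraries at the top also differed from gene to gene, with KO 1 highest for Ccr2 and Cx3cr1, KO 2 for Fcrls, KO 3 for Irf4, CTR 1 for Plac8 and Vcan, CTR 3 for Mrc1 and CTR 5 for Folr2.

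The wider list of 36 other genes of small peritoneal and monocyte-derived macrophages had 31 tested genes. Of these 4 rose at the edgeR threshold and 0 fell, against 1.83% and 2.11% of all tested genes. This list and those of the next paragraph were written with earlier results of these data known. Their counts beside the shares over all genes are therefore descriptions and not independent tests. At an unadjusted p under 0.05 there were 7 higher and 2 lower, against 10.0% and 11.9% of all tested genes. DESeq2 and voom each called 7 higher and 0 lower, beside the shares over all genes given above for those tests. The list's median log2 fold change was 0.15, beside -0.01 over all tested genes. Maf, a transcription factor of tissue macrophages, rose, with 215 ± 26.0 CPM in CTR against 327 ± 45.3 CPM (log2 fold change 0.61, SE 0.11, edgeR adjusted p = 0.0192), and Csf1r, the receptor on which macrophages depend for survival, from 942 ± 89.4 to 1295 ± 113 CPM (0.46, SE 0.09, edgeR adjusted p = 0.0235). The C-type lectin gene Clec4b1 rose from 0.605 ± 0.264 to 1.58 ± 0.319 CPM (1.38, SE 0.31, edgeR adjusted p = 0.0315), and Klf2, a transcription factor gene, from 12.2 ± 2.53 to 18.5 ± 2.32 CPM (0.60, SE 0.14, edgeR adjusted p = 0.0407). The count of 4 was 0 without CTR 3, KO 1 or KO 2, 1 without KO 4, 3 without CTR 5, 2 without CTR 1, CTR 2 or KO 3, 5 without CTR 4 or without both CTR 4 and CTR 5, and 2 with no filter, and 1 gene of the list was called lower without CTR 4. The monocyte gene Ly6c2 averaged 3.36 ± 0.714 CPM in CTR against 2.26 ± 0.776 CPM in KO (-0.57, SE 0.25, edgeR adjusted p = 0.206), and was chosen after its value was seen. It was among the 2 lower genes counted above. Among the 7 higher, Retnla (5.94 ± 3.25 against 12.5 ± 4.79 CPM, 1.08, SE 0.34, edgeR adjusted p = 0.0949) had a lower p than Ly6c2 without being called. So did F13a1 (212 ± 65.5 against 373 ± 120 CPM, 0.82, SE 0.26, edgeR adjusted p = 0.0966).

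Beside these, the MHC class II genes, whose high level defines the small peritoneal macrophage at the protein level, were higher in KO. Of 9 tested 6 rose at the edgeR threshold (H2-Aa, H2-Ab1, H2-Eb1, H2-DMa, H2-DMb1 and Cd74), against 1.83% of all tested genes. The list median was 1.14, and at an unadjusted p under 0.05 there were 9 higher, against 10.0% of all tested genes. No gene of the list was called without CTR 3, KO 1, KO 2 or KO 4, 2 were called with no filter or without CTR 1 and 4 without CTR 5. The lowest log2 fold change of the 6 genes in these fits was 0.64. Calls over all genes, 520 with all libraries, were 121 without CTR 3, 131 without KO 1, 62 without KO 2 and 127 without KO 4. Of 23 tested genes of large resident macrophages 6 fell (Timd4, Selp, Alox15, Serpinb2, Ltbp1 and Thbs1) and Itgam rose, against 2.11% lower and 1.83% higher among all tested genes. The list median was -0.23. At an unadjusted p under 0.05 there were 10 lower and 4 higher, against 11.9% and 10.0% of all tested genes. The count of 6 lower genes was 3 without CTR 3, KO 1 or KO 4 and 4 without CTR 5, KO 2 or both CTR 4 and CTR 5, and 4 with no filter. Itgam was not called with no filter, nor when CTR 1, CTR 2, CTR 3, CTR 5, KO 1, KO 2, KO 3 or KO 4 was absent from the fit. Gata6 itself averaged 4.37 ± 2.06 CPM in CTR against 2.73 ± 0.516 CPM in KO (edgeR adjusted p = 0.179). These lists too were written with earlier results of these data known, and the difference between them was not tested.

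**Figure D4:**
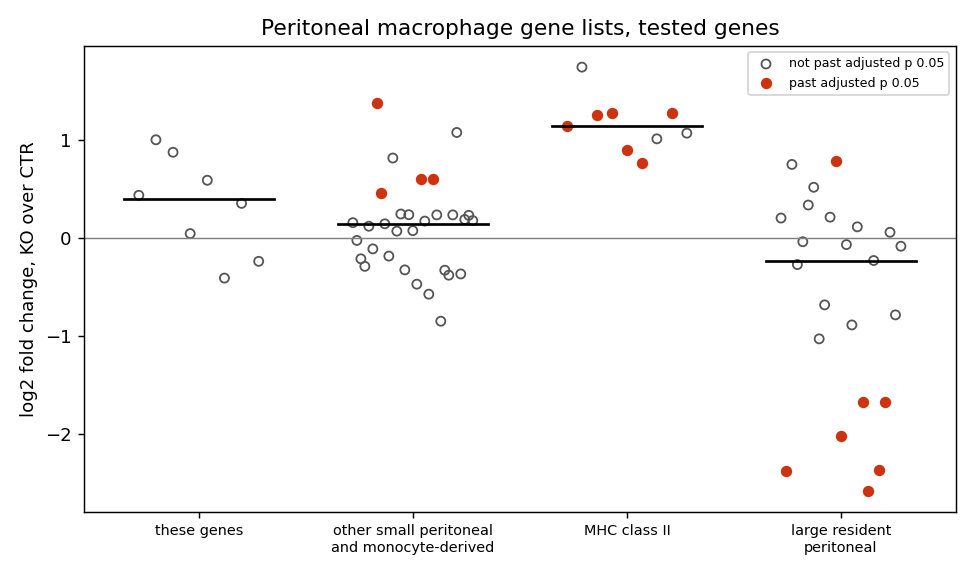
Log2 fold change of KO over CTR for the tested genes of 4 lists (points are genes, filled where the edgeR adjusted p is under 0.05, black lines are list medians). The 8 genes described here are all unfilled, with a median of 0.40; the medians of the other lists are 0.15, 1.14 and -0.23.

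The genes whose levels followed those of the 3 members with the lowest p-values most closely over the 10 libraries were found by the root mean square distance between standardised log2 CPM, in units of SD, over 10310 genes. For Fcrls they were Hmga1b (0.228), Adck5 (0.236) and Tpst2 (0.310), against a median distance of 1.36 over all genes compared. For Mrc1 they were Zfp991 (0.252), Dnajc10 (0.277) and Cep83 (0.305), against a median of 1.32. For Irf4 they were Dtwd2 (0.321), Rab6a (0.341) and Unc5b (0.392), against a median of 1.33. The nearest of 10310 genes lie below the median distance by the way they were picked, so these distances show no link between genes.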

How the data were processed

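For each of 10 libraries the authors deposited whole-number counts by Ensembl gene and FPKM values in one table. Per the submitters' processing notes, the build was GRCm39 and the tools were edgeR, HISAT2, SAMtools 1.3.1 and CASAVA 1.8, with no role given. What counted the reads, with which annotation and strand setting, is not given in the sources used here. Deposited FPKM equal counts over gene length and column total (relative deviation at most 1e-05 for genes with at least 50 counts). All 20 columns were matched to samples by library number, and 53274 of 53465 genes to a symbol. Totals ran from 15664243 to 19235777 counts; limits for a count of 0 cover counting error only.

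The filter filterByExpr of edgeR 4.0.16 (R 4.3.3, limma 3.58.1) left 13203 genes with 99.9% of counts. Libraries were scaled by TMM and genotypes compared by a two-sided quasi-likelihood test on genotype, adjusted by Benjamini and Hochberg over all genes tested (threshold 0.05). SE is the absolute log2 fold change divided by the root of F. The script was tested on simulated data. Alternatives were other scalings and filters, DESeq2 1.42.0, voom, a replicate block, and libraries left out. The genes and lists were chosen with earlier results of these data known. The text names the 10 genes, Gnas, the genes past the threshold of the 3 other macrophage lists, the 3 lowest p of the first of these, and the 3 genes nearest in pattern to each of the 3 members with the lowest p; other genes were named after their values were seen.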

Additional observations from a re-analysis of the deposited data

Results flagged for a closer look

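Cd226 in CTR 5 stood at 0.249 CPM, far from the other CTR libraries, the nearest of which was at 0.0676 CPM. The gap took up a share of 0.729 of the range of the 5 libraries, above the 95% critical value of 0.71. It rests on 4 counts. Of 20 such groups checked (10 genes in 2 genotypes) 1 stood out, and chance flags about 1 in 20.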

How the results depend on the processing

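The count of these genes past the threshold, 0 higher and 0 lower in KO with edgeR, was 1 and 1 by DESeq2, 2 and 1 by voom with quality weights, and 1 and 1 without CTR 4 and CTR 5; it was 0 to 1 in each direction with 1 library left out. Their median log2 fold change, 0.40, was 0.24 without CTR 4 and CTR 5 and 0.30 to 0.54 with 1 library left out. The sign of Cd226 turned with voom (0.00945) and without CTR 4 and CTR 5 (0.74), and ran from -0.90 to 0.54 with 1 library left out; that of Lyve1 ran from -0.0460 to 1.09 and that of Folr2 from -0.0170 to 0.13. Ccr2, Plac8, Irf4 and Vcan kept their sign and stayed outside the threshold in 18 of 18 other settings. Over all genes, 241 higher and 279 lower became 312 and 213 with library size as the only scaling, 122 and 139 with no filter (more genes tested), 599 and 690 by DESeq2, 1026 and 893 by voom, 694 and 491 without CTR 4 and CTR 5, and 32 to 484 and 30 to 384 with 1 library left out. With the replicate block they were 59 and 45, and 0 and 0 of these genes were called. The block left 1 of the 4 higher genes of the wider list (Csf1r, Clec4b1 and Klf2 lost), 3 of the 6 lower genes of large resident macrophages (Timd4, Selp and Ltbp1 lost) and 6 of 6 MHC class II genes. Equal replicate numbers are not stated to pair libraries, and their residuals correlated between -0.126 and 0.0582 over genes; no library correlated best with its own number. The cause of these shifts was not tested unless stated. Depth limits Lyve1, Cd226 and Cx3cr1 (40, 13 and 142 counts in all libraries together).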
